A study of Mus musculus with 4 samples.

Results

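The genes described here encode the proteins of the cytosolic ribosome and the factors that drive or regulate translation, and they were read in libraries of DNA recovered with an antibody to Foxp1. They were chosen by symbol: Rpl or Rps followed by a number, with or without 1 further letter a, l, x or y, the P stalk symbols Rplp0 to Rplp2, Rpsa, and every symbol that begins with Eef or Eif and a number. In the gene table of 24548 genes, 150 symbols matched, 82 of ribosomal proteins and 68 of factors. Of these, 131 had 40 or more reads summed over the 4 libraries and were tested (71 ribosomal protein genes and 60 factor genes), out of 23128 tested genes in all.

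The study asked where Foxp1, a forkhead transcription factor, is bound in the 2 epithelial layers of the mouse mammary gland. Basal and luminal epithelial cells came from wild-type FVB/N females (spelled FBV/N in the sample labels) aged 10 to 12 weeks, with no treatment. Each cell type has 1 Foxp1 chromatin immunoprecipitation (ChIP) library and 1 library of input DNA, made without the antibody. With 1 library per group there is no replicate check, no p-value is given, and each interval covers counting error only. No library with a control antibody was analysed here, and the labels do not say how many animals were pooled.

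Each ribosome is built from a large and a small subunit, and cells need their proteins in near-equal amounts. Translation starts when eIF4 factors bind the capped mRNA, eIF2 brings the initiator tRNA, eIF3 organises the small subunit, and eIF1 and eIF1A guide the choice of start codon; elongation factors then move the chain forward. Genes for these proteins are used in nearly all cells, typically from compact promoters rich in CpG, and many ribosomal protein genes begin transcription at a C within a run of pyrimidines.

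The values are reads counted per gene region, so they give the amount of DNA recovered around a gene and no mRNA level. The reads in gene regions summed to 3772902 for basal ChIP, 3080114 for basal input, 3163948 for luminal ChIP and 4201459 for luminal input. Libraries were scaled to each other by the trimmed mean of M values (TMM), and enrichment is the log2 ratio of scaled ChIP reads to scaled input reads of the same cell type. A gene was called when this ratio was at least 1.5-fold in either direction and its exact 99% counting interval excluded 1. Regions of marker genes were read in the same way: of 6 basal markers, Krt5 (log2 0.79 in basal cells and -0.46 in luminal cells) and Krt14 (0.86 and 0.08) were called higher in basal cells. Of the basal markers not called there, Acta2, Oxtr and Mylk had log2 0.47, 0.55 and 0.16, and Trp63 had -0.0005. Of 6 luminal markers, Krt8, Epcam and Gata3 were called higher in luminal cells, and Epcam also in basal cells. The rest were not called: Krt18 and Krt19 had luminal ratios of 0.41 and 0.38, and Elf5 had -0.48 (-0.27 in basal cells). None of 9 markers of leukocytes, endothelium and fibroblasts was called higher in either cell type. Dcn, a fibroblast marker, was called lower in basal cells (-0.63). Such regions do not measure expression, so they do not check the purity of the cells.

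Many of the ribosomal protein genes could barely be read. Of the 150 symbols, 19 were below the limit of 40 reads, which is 12.7% against 5.78% of all genes in the table, and 9 held no read in any of the 4 libraries, among them Rps2, Rps27, Rpl23a and Rplp2. Rpl34 held 1 read in all, Rpl26 held 4 and Rpl30 held 6. Eif2s3y, the Y-linked copy of the eIF2 gamma gene, held 1 read, and the cells came from females. The input libraries were as empty as the ChIP libraries at these genes, so nothing can be said of Foxp1 there. Just inside the limit stood Rpl3, with 17 ChIP and 7 input reads in basal cells and 9 and 13 in luminal cells, and Rps18, with 13, 14, 11 and 19 in the same order. Just outside stood Eif4e, the cap-binding protein, with 8, 7, 12 and 9.

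Input reads followed the distance to the next gene. Of the 114 members with a start site window in RefSeq, 20 had the start of another gene of the table within 3000 bp, and their 2 inputs summed to between 0 and 112 reads (median 55.5). The 17 members whose nearest other start lay more than 5000 and at most 10000 bp away had a median of 388, and the 72 with none within 10000 bp had a median of 376.5. Small RNA genes inside the host gene went with low reads too. The 23 ribosomal protein genes that hold a snoRNA or miRNA gene had a median of 44 input reads, 9 such factor genes had 326, and the 118 members without one had 372. How reads that fall in 2 genes or map to several places were counted is not stated in the labels, and its part in these low counts was not tested. Most ribosomal protein genes have processed copies elsewhere in the genome, which adds the same uncertainty.

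**Figure D1:**
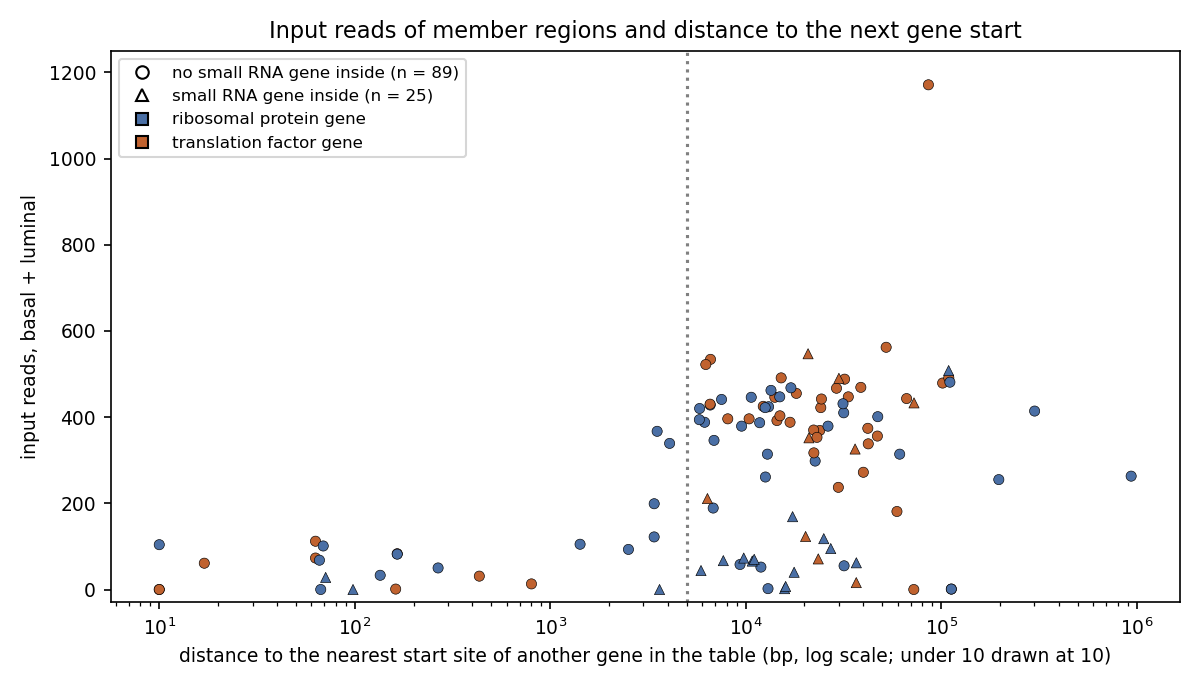
Input reads of each member (basal plus luminal, vertical axis) against the distance in bp from its start to the nearest start of another gene in the table (log axis, 114 members; triangles hold a small RNA gene, blue marks ribosomal protein genes and orange translation factor genes; dotted line at 5000 bp). The 20 members with another start within 3000 bp hold at most 112 input reads, and most of those farther away hold more.

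In basal cells, 12 of the 131 members were called higher in ChIP than in input and 1 was called lower. The 12 make up 9.16%, while 4.24% of all tested genes were called higher and 4.06% lower. The 12 were 4 of 71 ribosomal protein genes (Rpl36, Rps26, Rps27l and Rps9) and 8 of 60 factor genes (Eef1a1, Eef1g, Eef2k, Eif1, Eif2s3x, Eif3c, Eif4ebp1 and Eif4g2). The 1 lower was Eif2ak1, a kinase of eIF2. The median log2 ratio was 0.09 over the members, with 82 of 131 above 0, and -0.01 over all tested genes. With the interval widened by the spread of 1108 olfactory receptor genes, whose ratios varied 2.28 times as much as counting allows, 11 members stayed higher (3.59% of all tested genes did), Rps9 was lost and none was lower.

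In luminal cells, 6 of the 131 members were called higher and none lower, against 1.5% and 2.13% of all tested genes. They were Rpl27, Rpsa, Eef1a1, Eif1, Eif1ax and Eif4g1, and they make up 4.58% of the members. The median log2 ratio was 0.11, with 87 of 131 above 0, against -0.00 over all tested genes. Under the widened interval (a receptor spread of 2.12 times counting), 5 stayed higher and Rpsa was lost, while 1.13% of all tested genes were higher. Eef1a1 and Eif1 were the members called higher in both cell types. Of the 12 called higher in basal cells, 10 had a luminal ratio above 0, and of the 6 called higher in luminal cells, 5 had a basal ratio above 0. Among all members, 66.4% had a luminal and 62.6% a basal ratio above 0, against 49.6% and 48.4% of all tested genes. Over all 131 members, 64 were above 0 in both cell types and 26 below 0 in both. Across these members the basal and luminal ratios had a Pearson correlation of 0.36 and a Spearman correlation of 0.35. The points share libraries and low counts. Among the 86 members with 250 or more input reads the values were 0.29 and 0.25. The overlap counts and correlations over all tested genes are not given here, so these values are not read as a trait of the members.

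**Figure D2:**
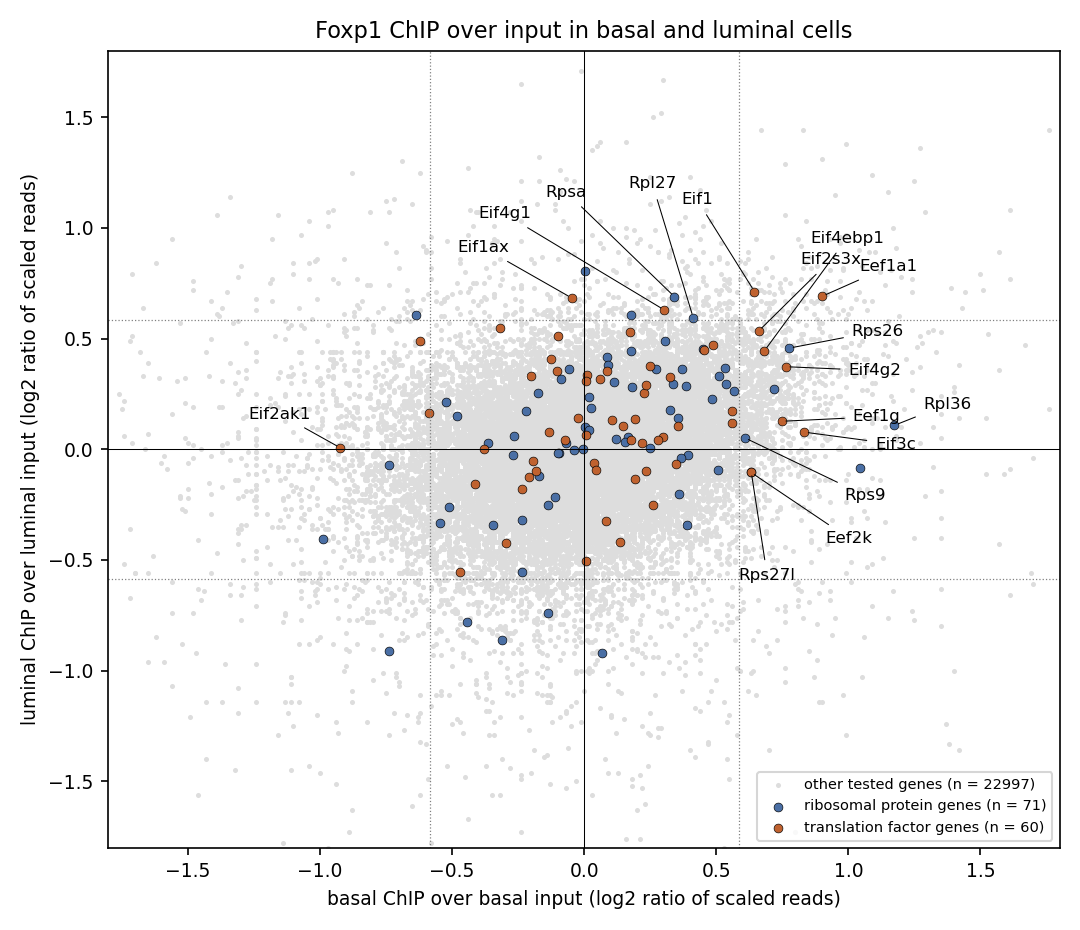
Log2 ratio of Foxp1 ChIP to input in basal cells (horizontal axis) and luminal cells (vertical axis) for 71 ribosomal protein genes (blue), 60 translation factor genes (orange) and the other tested genes (grey; 95 lie beyond the axes). Dotted lines mark 1.5-fold; the 17 labelled members were called in at least 1 cell type, and Eef1a1 and Eif1 lie past 1.5-fold in both.

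Depth moved with these counts. The 86 members with 250 or more input reads had median log2 ratios of 0.21 in basal and 0.15 in luminal cells and held 11 of the 12 basal and 5 of the 6 luminal calls. The 45 members with fewer reads had medians of -0.10 and -0.00, and their intervals reached a median of 1.01 and 0.94 log2 units to either side of the ratio, against 0.38 and 0.36 in the deeper members. Among all 17784 tested genes with 250 or more input reads, the medians were 0.01 in both cell types, 4.75% were called higher in basal cells and 1.41% in luminal cells. The 5344 tested genes with fewer had lower medians too, -0.13 and -0.05. Of them 2.56% and 1.82% were called higher, near the 2.22% of the shallow members in each cell type. A 1.5-fold difference was thus within counting error at many of the shallow members, Rpl3, Rps3 and Rps18 included.

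The DNA just upstream of the start is shown for 8 members that the results turn on: those with high lower bounds in 1 or both cell types and an entry in the table of windows, and Eif3g, which differed between the cell types. Each line runs 5′ to 3′ on the gene's strand from 145 bases before the annotated start to the fifth transcribed base, taken from RefSeq on GRCm38.p6. Capitals mark the first 5 transcribed bases and any match to the forkhead, ETS or YY1 letters given below. Rpl36, Eif4g2 and Eef1g had no entry.
Eef1a1: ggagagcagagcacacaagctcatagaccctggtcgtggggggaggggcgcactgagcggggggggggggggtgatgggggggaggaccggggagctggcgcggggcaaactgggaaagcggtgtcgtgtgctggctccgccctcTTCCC
Eif1: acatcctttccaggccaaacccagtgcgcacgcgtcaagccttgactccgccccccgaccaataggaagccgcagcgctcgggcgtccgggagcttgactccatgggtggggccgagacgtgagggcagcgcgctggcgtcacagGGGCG
Eif3c: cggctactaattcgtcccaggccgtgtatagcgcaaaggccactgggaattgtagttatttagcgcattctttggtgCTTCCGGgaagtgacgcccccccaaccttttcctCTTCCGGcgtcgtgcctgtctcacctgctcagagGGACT
Rps26: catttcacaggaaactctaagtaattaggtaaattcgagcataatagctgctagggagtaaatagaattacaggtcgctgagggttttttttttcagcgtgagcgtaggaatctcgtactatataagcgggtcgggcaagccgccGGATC
Eif1ax: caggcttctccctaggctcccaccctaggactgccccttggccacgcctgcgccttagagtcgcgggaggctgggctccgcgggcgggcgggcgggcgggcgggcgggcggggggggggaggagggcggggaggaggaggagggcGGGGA
Eif4g1: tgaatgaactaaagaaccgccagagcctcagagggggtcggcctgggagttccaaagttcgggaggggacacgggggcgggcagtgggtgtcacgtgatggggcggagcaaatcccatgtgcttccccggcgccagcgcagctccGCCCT
Rpl27: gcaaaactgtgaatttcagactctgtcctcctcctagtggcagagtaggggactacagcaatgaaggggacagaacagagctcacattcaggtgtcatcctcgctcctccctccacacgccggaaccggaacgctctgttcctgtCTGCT
Eif3g: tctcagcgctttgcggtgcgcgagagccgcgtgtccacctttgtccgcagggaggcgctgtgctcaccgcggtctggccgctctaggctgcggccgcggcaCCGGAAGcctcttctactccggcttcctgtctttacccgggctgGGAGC

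Eef1a1 lies at chr9:78481720-78481869 on the minus strand, Eif1 at chr11:100319804-100319953 on the plus strand, Eif3c at chr7:126566362-126566511 on the minus strand and Rps26 at chr10:128626502-128626651 on the minus strand. Eif1ax lies at chrX:159372033-159372182 and Eif4g1 at chr16:20672582-20672731, both on the plus strand. Rpl27 lies at chr11:101442100-101442249 on the plus strand and Eif3g at chr9:20898586-20898735 on the minus strand. The 8 stretches vary in base composition. That of Eif1ax is a G-rich run with 78.0% G and C over its 300-base window, and that of Rps26 holds 44.3%. In Eif3c the ETS letters begin 68 and 34 bases before the start and in Eif3g 44 bases before it, and none of the 8 printed stretches holds the forkhead letters.

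Across all members with a window (124 windows of 100 tested genes, each from 250 bases before to 50 after the start), the core forkhead letters TGTTTAC, on either strand, were found in 1 window (Rpl41), or 0.806%, against 3.65% of all 32851 windows. The looser form TGTTTNC, which includes the first, was found in 12 member windows (9.68% against 20.5%). These included Eif2s3x and Rpl24. The letters CCGGAAG, bound by ETS factors, were found in 40 member windows (32.3% against 8.86%, and 11.5% of the windows of tested genes), and in 33.8% of the windows of mitochondrial ribosomal protein genes. AAGATGGC, read by YY1, was found in 10 (8.06% against 2.75%), and in 16.9% of the mitochondrial windows. A start at C followed by 4 pyrimidines was annotated in 11 of 64 ribosomal protein windows (17.2%), against 3.33% of factor windows and 2.51% of all windows. Member windows were rich in G and C, with a median of 60% and 22 CpG pairs, against 56.7% and 13 over the windows of tested genes and 52.7% and 7 over all windows. The windows of mitochondrial ribosomal protein genes had 58.3% and 21. Forkhead letters hold many A and T bases. No adjustment for base composition was made, and its part was not tested.

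Large subunit genes made up 46 of the symbols, and 40 were tested. In each cell type 1 was called higher (2.5%), against 4.24% of all tested genes in basal and 1.5% in luminal cells. Higher calls in the groups that follow stand against the same shares. The medians were log2 0.08 in basal and 0.10 in luminal cells. Rpl36, a large subunit protein, had 210 reads in basal ChIP and 79 in basal input, but 99 and 125 in the luminal pair. It was thus 2.26-fold higher in basal ChIP (99% interval 1.6 to 3.23), the highest lower bound among the members, and 1.08-fold in luminal cells (0.753 to 1.54). A neighbouring gene 323 bp away, 2410015M20Rik, held 165 and 76 basal reads and was also called higher there (log2 0.88), so the 2 regions cannot be told apart as the source. Rpl27, another large subunit protein, had 253 reads in luminal ChIP and 228 in luminal input, a ratio of 1.51 (1.19 to 1.92); scaled by total counts it was log2 0.56, no longer called. Its basal pair of 251 and 160 gave 1.33 (1.02 to 1.74), short of the 1.5-fold limit. Rplp0, the scaffold of the P stalk, had log2 0.45 in both cell types, from 272 and 169 basal and 226 and 225 luminal reads, under the limit. The extremes of the group came from few reads: Rpl9 with log2 -0.99 in basal cells (19 and 32 reads), Rpl27a with -0.92 in luminal cells (14 and 36) and Rpl35a with 0.81 in luminal cells (36 and 28). Their intervals included 0.

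Small subunit genes made up 30 symbols, of which 25 were tested. In basal cells 2 (8%) were called higher and in luminal cells 1 (4%), and the medians were log2 0.11 and 0.19. Rps26 had 345 and 171 basal reads, a ratio of 1.71 (1.34 to 2.20), and 232 and 230 luminal reads, a ratio of 1.37 (1.08 to 1.75). Its ChIP value was above input in both pairs. Rps9 had 228 and 127 basal reads, a ratio of 1.52 (1.14 to 2.05). Its 2 ChIP libraries differed by log2 0.01 and its 2 inputs by -0.54, an input ratio that was not called. With both inputs summed as background the basal ratio fell to log2 0.27 and the call was lost. With 1 input library per cell type, a low basal input cannot be told apart from a high luminal input. Rpsa, a small subunit protein also known as a laminin receptor, had 109 and 92 luminal reads, a ratio of 1.61 (1.11 to 2.35). It holds the small RNA gene Snora62, and the gene Slc25a38, 1673 bp away, was called higher in basal cells (log2 0.74) and not in luminal cells (-0.27). Rps6, whose phosphorylation is a common readout of growth signalling, had log2 0.02 in basal and 0.24 in luminal cells and was not called. Rps3 had 18 and 16 basal and 18 and 24 luminal reads, too few to read. Rps28 had the lowest basal value of the group (log2 -0.52) and Rps25 the lowest luminal value (-0.56), each from 54 or fewer reads a library.

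Of the 5 paralogs with restricted use, only Rps27l was called (20%, in basal cells). Rps27l, a paralog of Rps27 induced by p53, had 263 and 144 basal reads, a ratio of 1.55 (1.18 to 2.04), and 161 and 235 luminal reads, a ratio of 0.932 (0.711 to 1.22). Rpl3l, a paralog used in muscle, had the lowest values of the group in both cell types, log2 -0.44 and -0.78, and was not called. Rpl10l, a testis paralog, had 0.15 and 0.03. Rpl32l, which the symbol rule also takes in, had log2 -0.51 in basal cells from 157 and 190 reads, just under the limit, and -0.26 in luminal cells.

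Among the 11 tested factors around eIF1, eIF5 and eIF6, the medians were log2 -0.10 in basal and 0.35 in luminal cells, with 4 and 8 of 11 above 0. Eif1, which guards start codon choice, had 280 and 152 basal reads, a ratio of 1.56 (1.2 to 2.04), and 289 and 240 luminal reads, a ratio of 1.64 (1.3 to 2.06). Both ChIP libraries exceeded their inputs by a like amount, although with the inputs summed the basal value was log2 0.52, under the limit. Eif1ax, the X-linked gene for eIF1A, had 223 and 189 luminal reads, a ratio of 1.61 (1.24 to 2.08), and 170 and 149 basal reads, a ratio of 0.968 (0.721 to 1.3). Eif1a, its autosomal copy, had 23 and 30 basal and 32 and 31 luminal reads, the lowest basal ratio of the group (log2 -0.62) with an interval that included 0. Eif5a, a factor that relieves stalled ribosomes, had log2 0.23 and 0.26 and was not called, and Eif2a had the lowest luminal value (-0.56).

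Of the 8 tested genes for eIF2 and its exchange factor eIF2B, 1 was called (12.5%, in basal cells), Eif2s3x, the X-linked gene for eIF2 gamma. It had 285 and 153 basal reads, a ratio of 1.58 (1.22 to 2.06), and 231 and 217 luminal reads, a ratio of 1.45 (1.13 to 1.86), just under the limit. No other gene of the table lies within 5000 bp of it. The lowest members were Eif2b2 in basal cells (log2 -0.20) and Eif2b4 in luminal cells (-0.50), and neither was called.

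The eIF3 genes (11 tested) had medians of log2 0.19 and 0.11, and 8 of 11 were above 0 in each cell type. Eif3c, a core subunit, had 319 and 152 basal reads, a ratio of 1.78 (1.38 to 2.32), and 183 and 236 luminal reads, a ratio of 1.06 (0.814 to 1.37). The gene Cln3, 4841 bp away, was also above input in basal cells (log2 0.58, not called) and was called lower in luminal cells (-0.76). Eif3g had the lowest basal value of the group (168 and 178 reads, log2 -0.32) and the highest luminal value (234 and 218 reads, log2 0.55), neither called. Eif3h was lowest in luminal cells (-0.13).

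The eIF4 genes (11 tested) had the highest basal median of the 9 role groups, log2 0.25, and 0.29 in luminal cells, with 10 and 9 of 11 above 0. Eif4g2, a relative of eIF4G that does not bind the cap-binding protein, had 442 and 221 basal reads, a ratio of 1.7 (1.37 to 2.11). Its luminal pair of 315 and 331 gave 1.3 (1.05 to 1.59). Eif4g1, the main scaffold, was the other way about: 250 and 220 luminal reads gave 1.55 (1.21 to 1.97) and 192 and 132 basal reads 1.23 (0.919 to 1.67), so that only the luminal value was called. The difference between the cell types was called for neither gene. Snord66, which overlaps Eif4g1, and Fam131a, 211 bp from it, had luminal ratios of log2 -0.13 and -0.07, not called. Eif4a1, the helicase, had log2 0.23 and 0.29 and was not called; the lowest values were those of Eif4e3 in basal cells (-0.07) and Eif4e1b in luminal cells (-0.42).

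Elongation factors (7 tested) included Eef1a1, called higher in both cell types, and Eef1g, called higher in basal cells. Eef1a1, which delivers aminoacyl-tRNA and is among the most abundant proteins of the cell, had 429 and 195 basal reads, a ratio of 1.87 (1.49 to 2.35), and 299 and 252 luminal reads, a ratio of 1.61 (1.29 to 2.02). By lower bound it ranked 108 in basal and 102 in luminal cells among the 23128 tested genes. Eef1g, a subunit of its exchange factor, had 283 and 143 basal reads, a ratio of 1.68 (1.29 to 2.21), and 211 and 263 luminal reads, a ratio of 1.09 (0.856 to 1.39). Its inputs differed by log2 -0.43, and with both inputs summed the basal value was 0.48, no longer called. Eef2, which moves the ribosome along, was near 0 in both cell types (log2 0.04 and -0.06, from 86 to 125 reads a library), and Eef1b2 was lowest in basal cells (-0.59) from 37 or fewer reads.

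Among the 12 regulators, the basal calls were 2 higher and 1 lower, and luminal cells gave none. Eif4ebp1, which holds back the cap-binding protein until it is phosphorylated by mTOR, had 259 and 137 basal reads, a ratio of 1.6 (1.22 to 2.13), and 212 and 212 luminal reads, a ratio of 1.36 (1.05 to 1.76). Eef2k, the kinase that inhibits eEF2, had 312 and 171 basal reads, a ratio of 1.55 (1.21 to 1.99), and 186 and 272 luminal reads, a ratio of 0.931 (0.724 to 1.19). With the inputs summed, the basal values of Eif4ebp1 (log2 0.57), Eef2k (0.50) and Rps27l (0.48) all fell under the limit. Scaled by total counts, the basal calls of Eef2k, Rps27l and Rps9 were lost too. Eif2ak1, the haem-regulated eIF2 kinase, had 46 and 74 basal reads, a ratio of 0.528 (0.316 to 0.865), and 79 and 107 luminal reads, a ratio of 1.0 (0.675 to 1.48). Its call was lost with the widened interval. The genes Aimp2 (27 and 34 basal reads, log2 -0.57) and Ankrd61 (120 and 123, log2 -0.27) overlap Eif2ak1. Neither was called, and these regions cannot be told apart as the source. Eif2ak3, the kinase of the unfolded protein response, had log2 0.01 and 0.06 and was not called. Eif2ak2, the kinase activated by double-stranded RNA, was lowest of the group in luminal cells (-0.42) and not called. Eif4ebp2 had 0.45 in both cell types, highest of the group in luminal cells and not called.

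**Figure D3:**
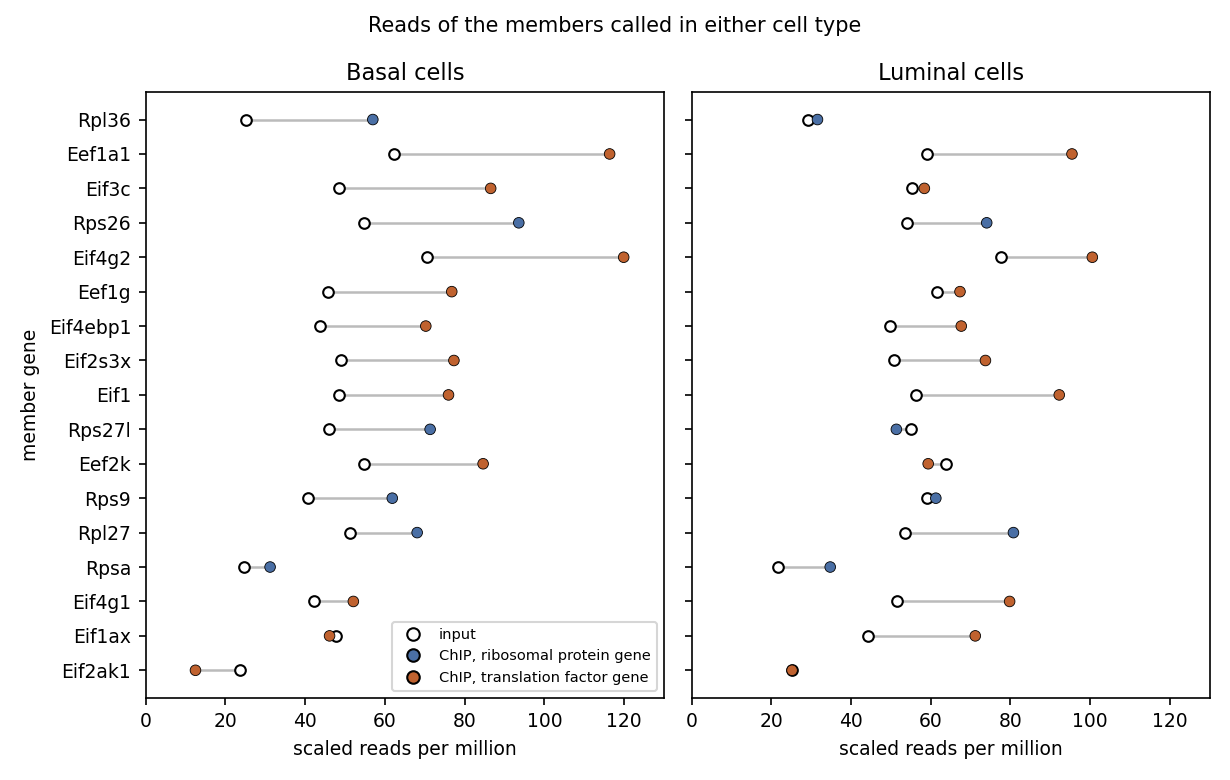
Reads of input (open circles) and Foxp1 ChIP (filled circles, blue for ribosomal protein genes and orange for translation factor genes) for the 17 members called in at least 1 cell type, in basal cells (left) and luminal cells (right), each divided by its library's TMM-scaled total (horizontal axis, per 1e+06 reads). Eef1a1 and Eif1 show a wide gap in both panels, while Rpl36 and Eif3c show one in basal cells and little in luminal cells.

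**Figure D4:**
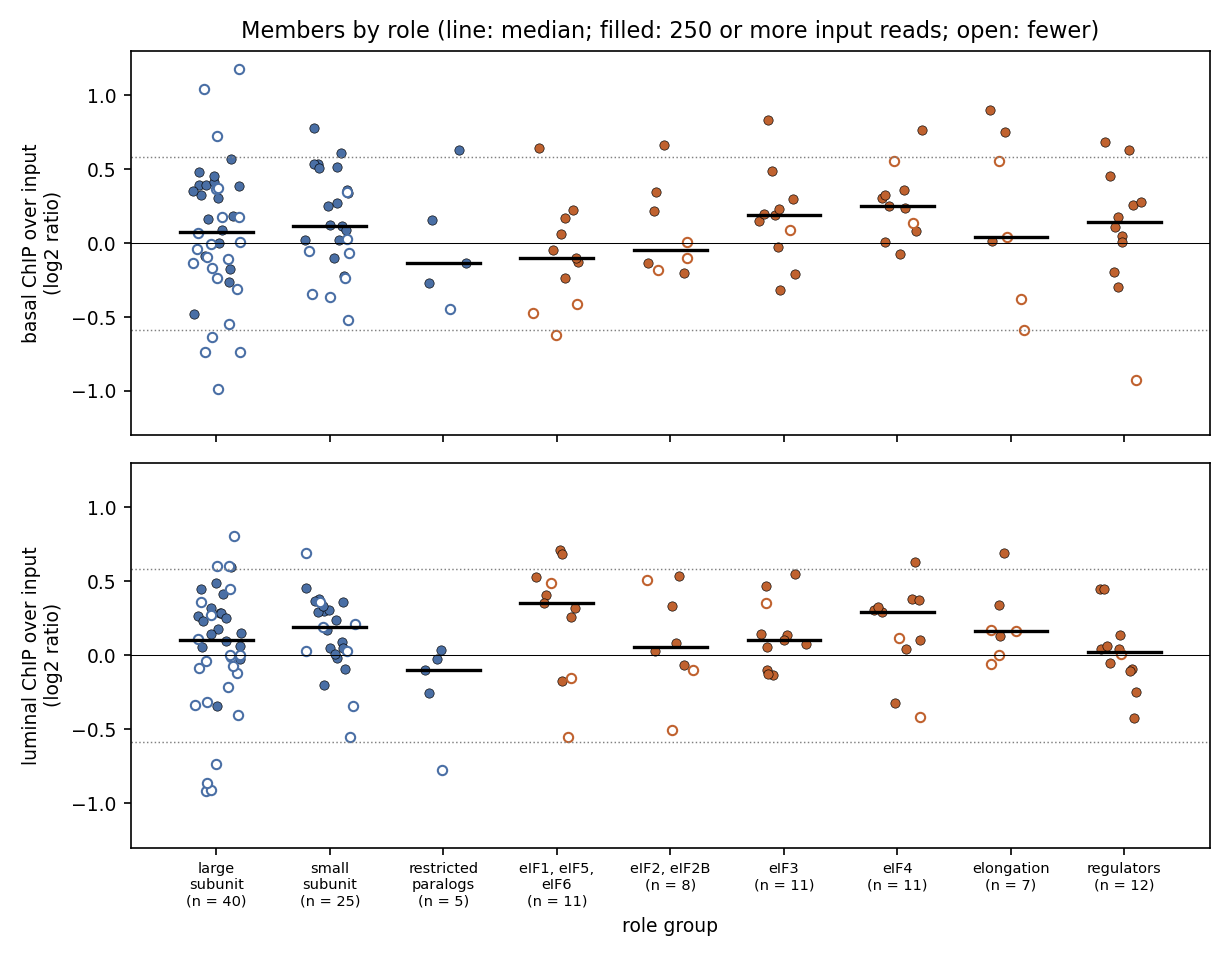
Log2 ratio of ChIP to input in basal cells (top) and luminal cells (bottom) for each member by role group; lines are medians, filled points have 250 or more input reads and open points fewer, dotted lines mark 1.5-fold. The eIF1, eIF5 and eIF6 group has a basal median of -0.10 and a luminal median of 0.35, and the widest scatter is among open points.

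The difference in enrichment between the cell types (the basal ratio divided by the luminal ratio) was called for 11 of the 131 members. It was higher in basal cells for 7 (among them Rpl36, Eif3c, Eef2k, Rpl24, Rps27l and Eef1g) and higher in luminal cells for 4 (Eif3g, Eif2ak1, Eif1ax and Rplp1), while 3.72% and 4.16% of all tested genes were called in these directions. The median difference over the members was log2 -0.01, against 0.00 over all tested genes. The members' shares were 5.34% and 3.05%, near this background. The widened interval left 1 in each direction, Rpl36 and Eif3g, against 0.886% and 0.562% of all tested genes. For the difference it used the mean of the basal and luminal receptor spreads (2.2 times counting).

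For Rpl36 the difference was 2.08-fold (1.28 to 3.38) in favour of basal cells, and for Eif3c it was 1.68-fold (1.18 to 2.41). Rpl24, a large subunit protein, was not called within either cell type: 241 and 156 basal reads and 165 and 285 luminal reads gave log2 0.39 and -0.34, a difference of 1.66-fold (1.15 to 2.39). Its inputs differed by log2 -0.42. On the luminal side, Eif3g differed by 0.549-fold (0.380 to 0.792), the lowest upper bound of the 4. Eif1ax followed with 0.603 (0.411 to 0.886). Rplp1, a P stalk protein, had 151 and 179 basal and 186 and 228 luminal reads, a difference of 0.645-fold (0.441 to 0.944). Rpl13a had the lowest fitted difference, log2 -1.23, from 25 to 38 reads a library, and it was not called.

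**Figure D5:**
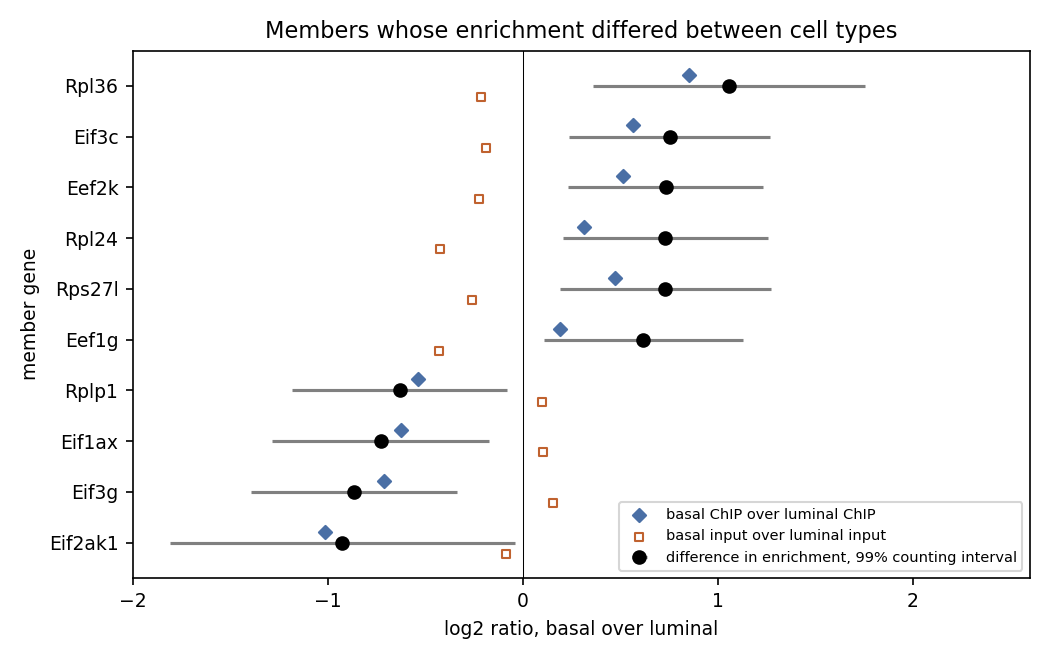
For 10 of the 11 members called for a difference between cell types: log2 difference in enrichment with its 99% counting interval (black), basal ChIP over luminal ChIP (blue diamonds) and basal input over luminal input (open orange squares), all on 1 log2 axis. The intervals exclude 0 by the call rule, and they come closest to it in Eif2ak1, Rplp1 and Eef1g.

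Between the basal and the luminal input, 0 of the 131 members were called, against 0.709% of all tested genes higher and 0.463% lower in basal cells, and at 1.5-fold alone 3 members passed. The difference is the log2 ratio of the ChIP libraries minus that of the inputs, so a choice by its size favours input ratios of the opposite sign. These were found in 10 of the 11 members called and in 1552 (85.1%) of the 1824 genes called in the whole table, so the count shows nothing of the members. With both inputs summed as a common background, the differences of Eef1g, Eef2k, Eif3c, Rpl24, Rplp1 and Rps27l were among those no longer called.

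Other genes of the protein synthesis pathway were read from lists of genes that the symbol rule leaves out. Of all tested genes, 4.24% were called higher in basal and 1.5% in luminal cells, and 2.13% were called lower in luminal cells. Of 12 tested genes for termination and poly(A) binding, basal cells gave 2 higher calls (16.7%) and luminal cells 0. They were Pabpc1 (341 and 191 reads, log2 0.60) and Pabpc4 (263 and 141 reads, log2 0.66), which bind the poly(A) tail, and the list had medians of 0.41 and 0.11. Of 16 mTOR pathway genes, 1 (6.25%) was called higher in basal cells: Rictor, a subunit of mTORC2 (380 and 199 reads, log2 0.70). The medians were 0.07 and 0.06. Of 29 tested genes for ribosome assembly, 1 (3.45%) was called higher in basal cells: Npm1, a nucleolar chaperone (314 and 171 reads, log2 0.64). In luminal cells 1 (3.45%) was called lower: Wdr12, a factor of large subunit assembly (19 and 53 reads, log2 -1.04). Pabpc4 (0.68), Rictor (0.62) and Npm1 (0.69) were also called for a difference in favour of basal cells, and Rpl22l1 (-0.61), Bop1 (-1.49) and Rrs1 (-0.93) in favour of luminal cells. Of all tested genes, 3.72% and 4.16% were called in these directions. Bop1 had few reads, 28 and 32 basal and 31 and 20 luminal. Its basal input over luminal input was itself called higher (log2 1.12), though not under the widened interval. Of 6 tested ribosomal protein genes and paralogs with other symbols, such as Fau, none was called within a cell type.

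Compared with like gene sets, the cytosolic ribosomal protein genes had medians of log2 0.09 in both cell types, and the 69 mitochondrial ribosomal protein genes had 0.07 and 0.06. In basal cells none of the mitochondrial set was called higher and 5 (7.25%) were lower, against 4.06% of all tested genes. Among the 71 cytosolic genes 4 (5.63%) were higher, against 4.24%, and none lower. Under the widened interval the mitochondrial set had no call and the cytosolic set 3 higher, so no difference between the sets is shown. The 6 tested ribosomal protein pseudogenes had medians of -0.13 and -0.31, none called. Among all 19721 tested protein-coding genes, 4.58% were called higher in basal cells and 1.5% in luminal cells.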

How the data were processed

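Foxp1 ChIP DNA and input DNA were sequenced as single reads of 75 to 85 bp, per the labels' protocols, in 1 library each for basal and luminal cells. The authors deposited raw read counts per gene (unit: counts, not normalized), made with featureCounts on mm10, per the submitters' processing notes; for the aligner, tool versions, counted region and duplicate handling, nothing is given in the sources used here. The 4 single-sample files equalled the joint table at all 24548 genes.

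Counts were scaled by TMM (edgeR 4.0.16, R 4.3.3) over genes with 40 or more reads. Ratios carry exact Clopper-Pearson 99% intervals of the split of 2 counts; differences carry 99% intervals from counts plus 0.5. A call needed 1.5-fold and an interval excluding 1. No significance test was run, since each group has 1 library. The code for the intervals and calls was checked on simulated counts. Alternatives were DESeq2 1.42.0 size factors, total counts, centring on olfactory receptors, no count filter, other call rules, both inputs summed and subsets of members; those for the input comparison were added after seeing the data. Gene positions and start windows came from RefSeq, GRCm38.p6.

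The members and lists were chosen with earlier results of these data known. Named genes were every called member, those at the ends of each comparison and role group, a fixed set of familiar genes, those nearest the count limit and every called gene of the outside lists; neighbours of called members were named after their values were seen. Results for some genes are not reported here.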

Additional observations from a re-analysis of the deposited data

Results flagged for a closer look

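For the 7 members below, the single basal and single luminal library pairs moved in opposite directions and the difference in enrichment was called; the difference was not tested, since each group has 1 library. In favour of basal cells the log2 differences were 0.73 for Eef2k, 0.73 for Rpl24 and 0.73 for Rps27l. In favour of luminal cells they were -0.87 for Eif3g, -0.93 for Eif2ak1, -0.73 for Eif1ax and -0.63 for Rplp1. For Eif1ax the basal ratio was -0.05, and for Eif2ak1 the luminal ratio was 0.01, so 1 side of each was close to 0. With the widened interval only Eif3g of these 7 stayed called.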

How the results depend on the processing

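The counts below are of members called higher or lower together, 13 in basal cells, 6 in luminal cells, 11 for the difference and 0 between inputs in the text above. Apart from the widened interval, the share of all tested genes under each setting is not given. A change in these counts is therefore no result about the members. DESeq2 size factors and dropping the count filter kept these counts within 1.5 times and changed no call of the named members. Total counts gave medians of 0.0325 in basal and 0.07 in luminal cells and lost the basal calls of Eef2k, Rps27l and Rps9 and the luminal call of Rpl27, and 1 difference. Centring on olfactory receptors shifts all tested genes by the same amount within a comparison. It gave 27 basal calls, 5 input calls and medians of 0.30, 0.17 and, for the difference, 0.14. It lost both calls of Eif2ak1 and the difference of Rplp1. A 95% interval gave 10 luminal calls and 1 input call. The widened interval left 2 differences. At 1.5-fold alone, 21 members passed in basal cells, 14 in luminal cells, 21 for the difference and 3 between inputs. Both inputs summed gave 7 basal and 10 luminal calls, a luminal median of 0.14 and a median difference of -0.0668. The 33 members with no other gene within 5000 bp had 6 basal, 1 luminal and 2 difference calls, with medians of 0.17, 0.17 and 0.0434. Without regulators and restricted paralogs the luminal median was 0.14 and the median difference -0.0520. No value changed sign among called members, and the cause of each shift was not tested beyond what each setting changes by construction. Reads limit the 45 shallow members, and sampling of cells or chromatin is not covered by any interval. No paired analysis was possible because each group has 1 library.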

Other observations

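Base composition of the start window moved with the ratio in the table as a whole and little within the members. Over the 17432 tested genes with a window, the Spearman correlation between the percentage of G and C and the log2 ratio was 0.30 in basal and 0.19 in luminal cells. Over the 100 members with a window it was -0.01 and 0.07. The points share libraries, and these are descriptions. All tested genes with windows of 60 to 70% G and C had medians of log2 0.10 and 0.06, and the 39 members in that range had 0.07 and 0.12. At 50 to 60% all had -0.02 and -0.02, and the 45 members 0.005 and 0.05. At 40 to 50% all had -0.12 and -0.07, and the 7 members 0.48 and 0.23. Above 70% all had 0.19 and 0.10, and the 8 members 0.08 and 0.34. The 12 members with the looser forkhead letters had medians of 0.12 in basal and 0.0850 in luminal cells, and the 88 without had 0.06 and 0.11. Over all tested genes with a window, those with these letters had -0.05 and -0.02, and those without had -0.0005 and 0.01. Members with the ETS letters (37 genes) had medians of 0.02 in basal and 0.14 in luminal cells, and the 63 without had 0.09 and 0.08. Over all tested genes, the 2233 with the ETS letters had 0.07 and 0.06, and the 15199 without had -0.02 and -0.01. The 8 members with the YY1 letters had 0.18 and 0.40, and the 92 without had 0.05 and 0.07. Over all tested genes, the 621 with these letters had 0.08 and 0.04, and the 16811 without had -0.01 and -0.002. Of the 8, 1 (Eif2s3x) was called higher in basal cells, as were 7 of the 92, 27 of the 621 and 711 of the 16811. In luminal cells 0 of the 8 were called higher, 6 of the 92, 10 of the 621 and 246 of the 16811. A link between letters and ratio was not tested.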
